A study of Pichia kudriavzevii with 6 samples.

Results

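In the yeast Pichia kudriavzevii, 71 of 5464 measured genes were clearly expressed with glucose and at least 8-fold lower when succinic acid was the only carbon source. They are described here as the glucose-dependent genes. The species tolerates acid and is used to make organic acids such as succinic acid. Cells were moved for 3 hours to one of 3 media at pH 5.0. SoleS held 2% succinic acid and no glucose, GS held 2% glucose plus 2% succinic acid, and SoleG held 2% glucose. All cells were of strain CY902 with URA3 deleted, which encodes an enzyme of pyrimidine synthesis and often serves as a marker in yeast work. That deletion was thus present in all media. Each medium had 2 RNA-seq libraries, and the series is about transporters of dicarboxylic acids. No medium lacked both carbon sources, so loss of glucose and use of succinic acid cannot be told apart in SoleS.

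The genes were chosen on these same libraries. Counts were divided by the total of their library and expressed as CPM, the usual scale for libraries of unequal depth, and the value of a medium was the mean CPM of its libraries plus 1. A gene was kept where the SoleS value was at most 0.125 of the SoleG value and at most 0.125 of the GS value, with a SoleG value of at least 20. The fall in SoleS therefore follows from the choice and is described without a test. Of 4309 genes that reached the SoleG minimum, 88 met the limit against SoleG and 87 the limit against GS. Meeting one limit but not the other kept 17 genes out for a GS value that was too low and 16 for a SoleG value that was too low. At the edge, the last genes inside had a higher ratio of 11.9%, 12.2% and 12.4% and those just outside of 12.6%, 12.7% and 12.8%.

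Yeasts given glucose take it up through hexose transporters and break it down by glycolysis, and the genes for these steps are often among the most strongly transcribed in the cell. When glucose runs out, signalling through glucose sensors and repressor proteins changes, and genes for the use of other carbon sources, for respiration and for the synthesis of sugars from acids are switched on. In the baker's yeast Saccharomyces cerevisiae, many genes needed for fast growth on glucose are turned down at the same time. Which of the 71 genes belong to these pathways could not be looked up. The files give IDs (PK and a number) without names, and 0 of 5464 IDs matched the reference gene table. Most genes are therefore identified below by coding length, and an ID is given for the few chosen by a rule on fold change. A gene named only by its length was picked with its values in view.

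Count totals were 6024768 to 6959188 per library, and 5320 to 5331 genes had a count in each. The labels do not say whether the libraries of a medium came from separate cultures, and p-values rest on the spread between these libraries alone, which may be technical. The 71 genes were counted in every library. The lowest count in any library was 4, in SoleS, and the lowest in a glucose library was 203. In SoleS both libraries together gave 13 to 19956 counts per gene, with a median of 423, and 5 genes had fewer than 50.

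The 71 genes together accounted for 0.973% ± 0.0075 of all counts in SoleS, 17.7% ± 0.087 in GS and 16.2% ± 0.55 in SoleG (SD, n = 2 each). By library, the share was 0.968% and 0.979% in SoleS, 17.8% and 17.7% in GS, and 15.8% and 16.6% in SoleG. A small set of genes thus made up a sizeable part of the transcriptome wherever glucose was present, and the libraries of a medium lay close together. The 5 genes with the most SoleG counts, of 1728, 1371, 1641, 1515 and 750 bases, held 0.480% ± 0.0024 of the counts in SoleS, 7.95% ± 0.14 in GS and 7.20% ± 0.16 in SoleG. The other 66 genes held 0.494% ± 0.0099 in SoleS, 9.76% ± 0.055 in GS and 9.01% ± 0.39 in SoleG. Shares are relative to the library total, so less of these transcripts per cell and more of all others cannot be told apart.

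**Figure D1:**
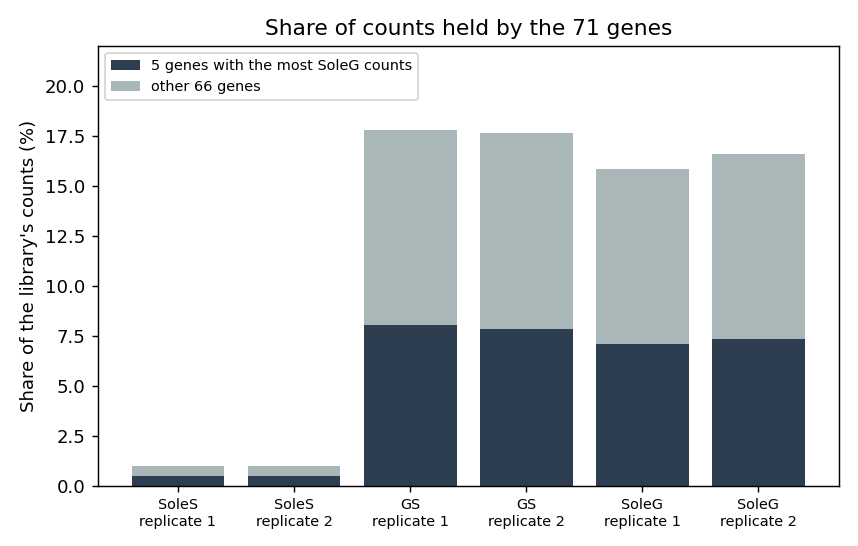
Share of each library's counts (%, vertical axis) held by the 71 glucose-dependent genes, for the 6 libraries along the horizontal axis. Dark bars are the 5 genes with the most SoleG counts and light bars the other 66; the SoleS bars end below 1%, at 0.968% and 0.979%, and the glucose bars between 15.8% and 17.8%.

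Levels of different genes were compared per length, as FPKM (CPM divided by the coding length in kilobases) computed from each library's own total. On this scale 0 of the 71 genes were among the 100 highest of all genes in SoleS, 21 in GS and 22 in SoleG. Among the 10 highest were 0 of them in SoleS, 4 in GS and 3 in SoleG. The gene levels ran over a wide range in every medium, with a lowest, median and highest FPKM of 1.46, 27.4 and 1271 in SoleS, 29.6, 760 and 15635 in GS, and 38.7, 629 and 15113 in SoleG. The choice therefore brought together very abundant transcripts and some of ordinary abundance. In SoleG, 70 of the 71 lay above the median of all genes, which was 45.7 FPKM.

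**Figure D2:**
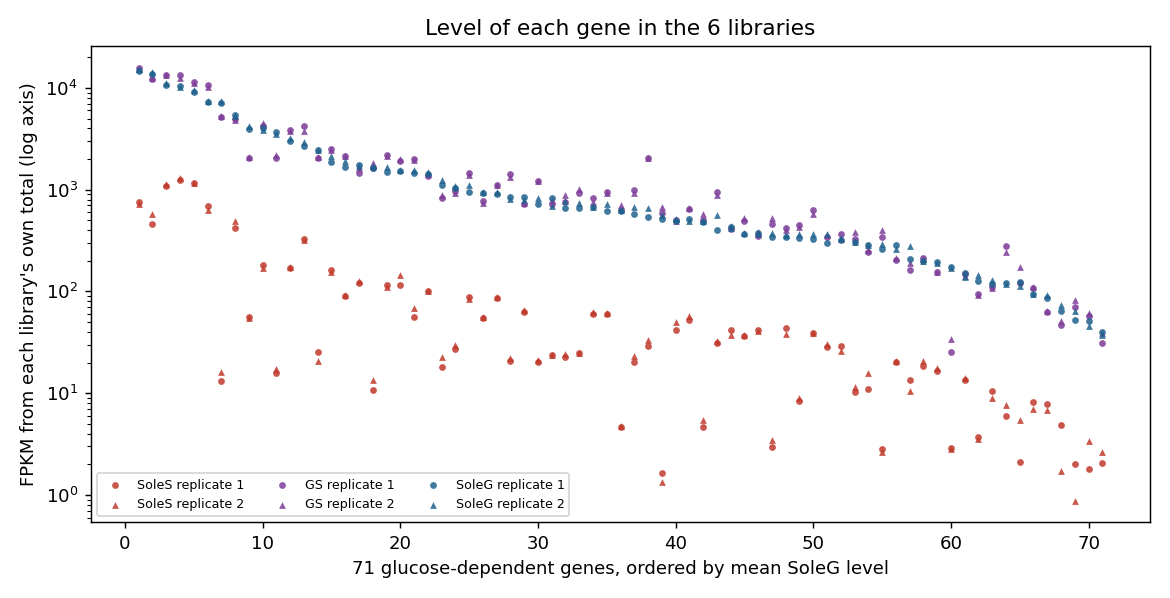
Level of each of the 71 genes in the 6 libraries, as FPKM from the library's own total on a log axis, with genes ordered along the horizontal axis by mean SoleG level. Red SoleS points lie below the purple GS and blue SoleG points for all 71 genes, as the choice of genes requires of the means only, and replicates (circles and triangles) mostly lie close together.

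The most abundant of these genes in the glucose media, of 1728 bases, ranked 234 among all genes in SoleS, 6 in GS and 6 in SoleG by FPKM. It had 1299 and 1252 CPM in SoleS, 27379 and 26655 CPM in GS, and 25623 and 26609 CPM in SoleG. Its SoleS value was 4.89% of the SoleG value, and GS and SoleG were close to each other. The gene of 534 bases ranked 348 in SoleS, 10 in GS and 7 in SoleG by FPKM. It had 243 and 305 CPM in SoleS, 6576 and 6669 CPM in GS, and 7331 and 7652 CPM in SoleG. The 1371-base gene ranked 143 in SoleS, 8 in GS and 9 in SoleG. It had 1505 and 1574 CPM in SoleS, 18448 and 18209 CPM in GS, and 14801 and 15432 CPM in SoleG. Libraries of the glucose media did not overlap with SoleS for these 3 genes or any other of the 71. The choice of genes, made on the means of the media, makes this likely but does not require it.

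The fall in SoleS varied greatly among the genes. SoleS values were 8.03 to 474-fold lower than in SoleG, with a median of 15.4, and 8.47 to 347-fold lower than in GS, with a median of 16.3. Against SoleG, the fall was under 16-fold for 37 genes, 16 to 64-fold for 24, 64 to 128-fold for 6 and at least 128-fold for 4. Against GS the same bands held 35, 26, 6 and 4 genes. Most of the genes thus lay in the lower bands, and a small group fell far more deeply. The 37 genes under 16-fold summed to 6948 CPM in SoleS, 88412 CPM in GS and 71012 CPM in SoleG. The 10 genes at 64-fold or more summed to 220 CPM in SoleS, 25341 CPM in GS and 33580 CPM in SoleG. These bands were set on the values that chose the genes and carry no test.

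PK2426, of 1641 bases, had the lowest SoleS value relative to both glucose media on the mean CPM plus 1. Its counts were 149 and 159 in SoleS, 57869 and 54688 in GS, and 76917 and 80275 in SoleG. The ratio of counts scaled by library totals was 0.201% of SoleG, with a 95% exact (Clopper-Pearson) counting interval of 0.179% to 0.225%. It was 0.274% of GS, with an interval of 0.244% to 0.307%. These intervals cover counting error only. By FPKM the gene ranked 4343 in SoleS, 19 in GS and 15 in SoleG. PK4657, of 1233 bases, came next against both media. It had 14 and 10 counts in SoleS, 4941 and 5257 in GS, and 4271 and 4639 in SoleG. Its scaled count ratio was 0.276% of SoleG (95% exact counting interval 0.177% to 0.411%) and 0.236% of GS (0.151% to 0.351%). The intervals of both genes overlapped against each medium.

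The 1551-base gene was also among the deepest, at 24.3 and 26.6 CPM in SoleS, 3195 and 3426 CPM in GS, and 5709 and 5435 CPM in SoleG. It ranked 4178 in SoleS, 57 in GS and 27 in SoleG by FPKM. The gene of 3429 bases was at 9.77 and 9.13 CPM in SoleS, 1187 and 1387 CPM in GS, and 894 and 999 CPM in SoleG. SoleS libraries stood far below both glucose media for both genes, whereas the order of GS and SoleG was opposite between them.

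"Nearly shut off" described some of these genes and not others. In SoleS, 28 of the 71 still lay above the median FPKM of all genes, which was 40.2, and 43 lay at or below it. The 28 ran from genes among the most abundant in SoleG down to the 999-base gene, at 352 FPKM and rank 530 there. All 28 were thus well above the SoleG median of 45.7 FPKM, which the 8-fold limit largely required. The 750-base gene had the highest SoleS level of the 71, at 1246 and 1295 FPKM in SoleS, 13351 and 12656 FPKM in GS, and 10524 and 10265 FPKM in SoleG. It ranked 120 of all genes in SoleS. The gene of 753 bases had a mean of 1162 FPKM in SoleS, 11427 FPKM in GS and 9349 FPKM in SoleG, and ranked 138 in SoleS. Altogether 15 genes kept at least 100 FPKM in SoleS and 17 were below 10 FPKM. Genes that were lowered but still abundant and genes with few counts left were thus both among the 71.

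**Figure D3:**
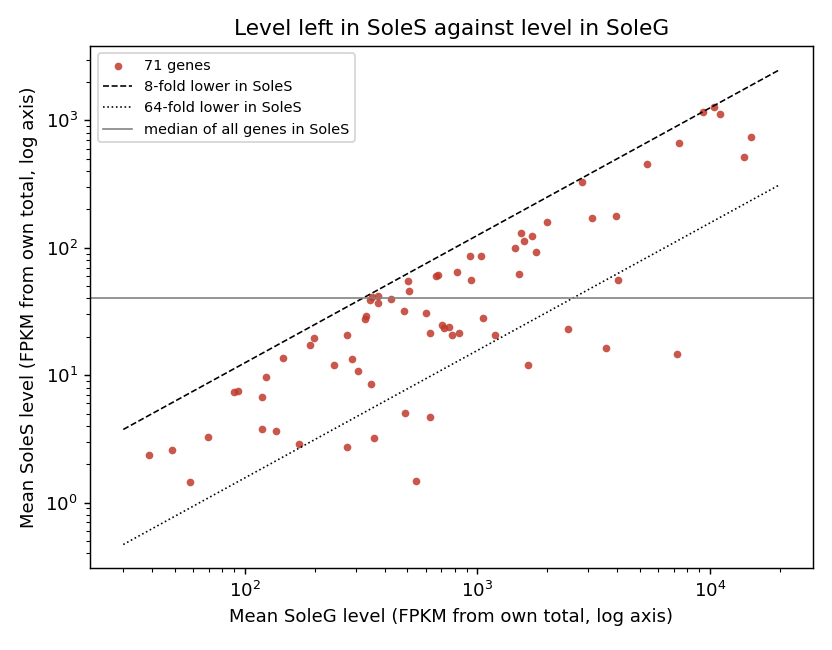
Mean SoleS level against mean SoleG level of the 71 genes, both as FPKM from each library's own total on log axes. Dashed and dotted lines mark levels 8-fold and 64-fold lower in SoleS and the grey line the median of all 5464 genes in SoleS (40.2 FPKM); 28 genes lie above the grey line.

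Replicates of a medium differed little. The median absolute log2 difference between replicates was 0.09 in SoleS, 0.08 in GS and 0.07 in SoleG for the 71 genes. It was 0.10, 0.09 and 0.10 in these media for the 4309 genes that reached the same SoleG minimum. The widest replicate difference was 1.02 on the log2 scale (CPM + 1), for the 768-base gene in SoleS. The widest in GS was 0.51, for the 273-base gene, and in SoleG 0.47, for the 1575-base gene.

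The comparison of GS with SoleG asked whether adding succinic acid while glucose was present already moved these genes. It is the only pair of media on whose ratio the choice set no limit, although both media entered the choice. A gene near 8-fold against SoleG could not be lower in GS and still be chosen. Likewise, a gene near 8-fold against GS could not be higher in GS. The choice therefore limits changes in both directions, and the balance of directions depends in part on it. Most of them rose with succinic acid added: 43 were higher in GS, 9 fell and 19 did not pass the test (quasi-likelihood test of edgeR, with p-values adjusted by Benjamini-Hochberg over 5280 genes and a threshold of 0.05). All 71 passed the filter on low counts. Of all genes tested, 37.6% were called, 20.0% as higher and 17.6% as lower in GS. The share of the 71 that rose, 60.6%, was above this background and the share that fell, 12.7%, below it. The 71 were more abundant, with a median of 749 CPM in SoleG against 61.2 CPM for all genes. These shares were not matched for level. The median log2 fold change of GS over SoleG was 0.34 for the 71 genes and -0.01 for all genes tested.

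The changes were small beside the fall in SoleS. At least 2-fold changes were found for 3 of the 43 genes that rose and 1 of the 9 that fell. Among all 5280 genes tested, 138 were called at least 2-fold higher and 101 at least 2-fold lower. The middle of the 71 genes lay between -0.01 and 0.52 on the log2 scale (quartiles). In unscaled CPM both GS libraries lay above both SoleG libraries for 38 genes, below them for 21, and overlapped for 12. This order was not counted over all genes, so these numbers have no background to be set against. Of the 43 genes called higher, 37 had libraries apart and 6 overlapped, while all 9 called lower had libraries apart. Among the genes not called, GS lay below SoleG for 12 and above for 1, and 6 overlapped. The order used unscaled CPM, whereas the calls used scaling factors that raised GS relative to SoleG. The unscaled order thus favours libraries apart for genes called lower and overlap for weak calls of higher. The scaling also matters for the split into 43 higher and 9 lower. TMM factors, used here, assume that most genes do not change. With no such factors and library totals alone, all genes had a median of -0.15 in place of -0.01, and 33 of the 71 genes were higher and 14 lower, or 70.2% of calls higher against 82.7%. Relative to the median of all genes, the median of the 71 was 0.35 under both scalings. A change of scaling moves all genes nearly alike, so this agreement is no check of the scaling. With limma on log2(FPKM + 1) of the deposited values, 25 rose and 12 fell.

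**Figure D4:**
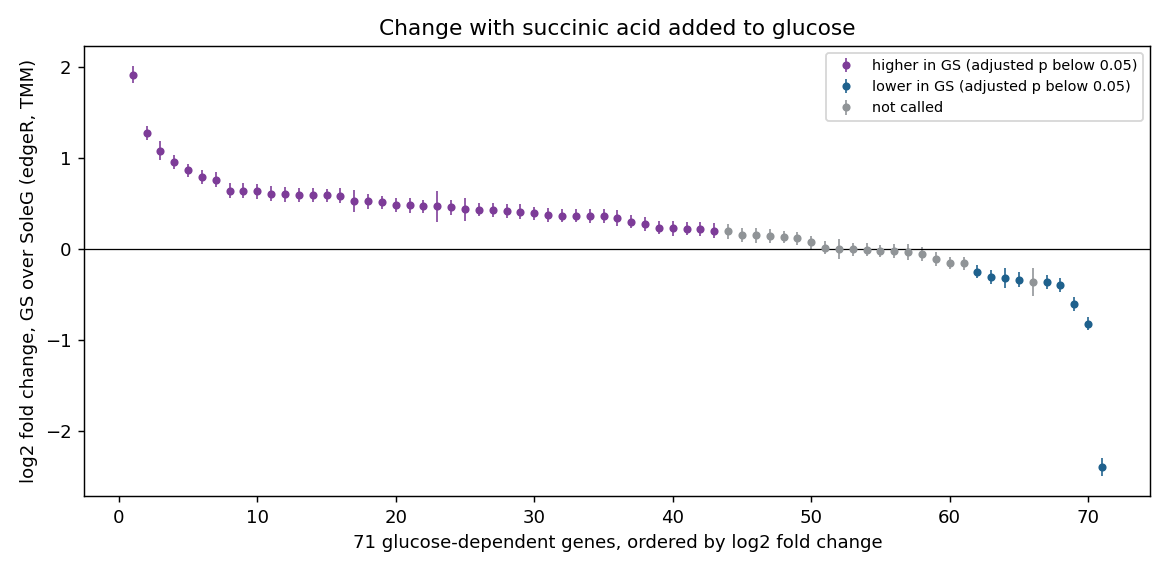
log2 fold change of GS over SoleG (vertical axis, edgeR with TMM scaling) for the 71 genes in order of size, with bars of 1 standard error. Purple points were called higher in GS (43), blue lower (9) and grey not called (19); the points run from 1.92 to -2.40.

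PK3754, of 1155 bases, rose most in GS. It had 33.3 and 38.3 CPM in SoleS, 2380 and 2391 CPM in GS, and 628 and 767 CPM in SoleG. GS was highest in both libraries, which the choice of this ID required. The log2 fold change of GS over SoleG was 1.92 ± 0.09 (SE, with an adjusted p of 5.10e-14 by edgeR), a 3.77-fold rise. PK1124, of 1314 bases, had 7.90 and 9.96 CPM in SoleS, 363 and 321 CPM in GS, and 158 and 155 CPM in SoleG. Its groups did not overlap, by the same choice, and the log2 change of GS over SoleG was 1.27 ± 0.08 (SE, with an adjusted p of 1.05e-11 by edgeR). The third gene past 2-fold, of 1575 bases, had 48.9 and 51.1 CPM in SoleS, 1499 and 1410 CPM in GS, and 638 and 882 CPM in SoleG, a log2 fold change of 1.08 ± 0.10 (SE, with an adjusted p of 1.39e-08 by edgeR). Its SoleG libraries differed the most of the 71 genes. All 3 genes were thus highest with both carbon sources and lowest with succinic acid alone, an order that picking chosen genes for a rise in GS required.

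PK3139, of 2091 bases, fell most in GS and was the only one of the 71 called at least 2-fold lower. It had 6.04 and 5.98 CPM in SoleS, 52.8 and 71.1 CPM in GS, and 367 and 352 CPM in SoleG. The 3 media formed separate steps with GS between the others, an order of means that the choice of genes and IDs required. The log2 fold change of GS over SoleG was -2.40 ± 0.10 (SE, with an adjusted p of 4.02e-15 by edgeR), a 5.26-fold decrease. PK4304, of 1650 bases, had 92.7 and 90.1 CPM in SoleS, 3364 and 3495 CPM in GS, and 6469 and 6894 CPM in SoleG. It was again lowest in SoleS and between in GS, with a log2 fold change of -0.82 ± 0.08 (SE, with an adjusted p of 7.70e-09 by edgeR). The 1551-base gene, described above among the deepest, also fell in GS, by 0.61 ± 0.07 on the log2 scale (SE; edgeR adjusted p = 6.23e-07). For these 3 genes succinic acid with glucose went with a partial decrease and succinic acid alone with a much deeper one. Picking chosen genes for a fall in GS required this order.

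Both genes with the deepest fall in SoleS changed little between the glucose media. PK2426 fell by 0.31 ± 0.08 on the log2 scale in GS (SE; edgeR adjusted p = 0.00356), with 8580 and 8724 CPM in GS and 11554 and 12075 CPM in SoleG. PK4657 rose by 0.37 ± 0.08 (SE; edgeR adjusted p = 0.000528), with 733 and 839 CPM in GS and 642 and 698 CPM in SoleG. This call was lost with limma on FPKM values, where the log2 difference was 0.18 to 0.23 (largest adjusted p = 0.225). Among the 10 that fell at least 64-fold in SoleS against SoleG, 6 rose in GS, 3 fell and 1 was not called. Of the 24 between 16 and 64-fold, 14 rose, 4 fell and 6 were not called. Of the 37 under 16-fold, 23 rose, 2 fell and 12 were not called. Genes that rose in GS outnumbered those that fell in each band, and those near the 8-fold limit had little room to fall and still be chosen. SoleG enters both the bands and this comparison, so a high SoleG value moves a gene to a deeper band and towards a fall in GS. The bands were counted with TMM scaling only and have no background of their own. All genes tested were 20.0% higher and 17.6% lower.

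Summed by call, which fixes the direction of each sum between GS and SoleG, the 43 genes that rose came to 7167 CPM in SoleS, 113996 CPM in GS and 87897 CPM in SoleG. The 9 that fell came to 257 CPM in SoleS, 17412 CPM in GS and 27160 CPM in SoleG. The 19 not called, which include the most abundant gene, came to 2309 CPM in SoleS, 45711 CPM in GS and 47118 CPM in SoleG. That gene, of 1728 bases, had a log2 fold change of 0.19 ± 0.08 (SE, with an adjusted p of 0.0566 by edgeR).

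Genes lowered less deeply in SoleS, by 2 to 8-fold against both glucose media and with the same SoleG minimum, served as the nearest comparison. There were 632, of which 197 rose in GS, 54 fell and 381 were not called (31.2% and 8.54% of them), with a median log2 fold change of 0.11. With library totals alone the balance of these turned over, to 114 higher and 142 lower (median -0.04). The 4309 genes at the SoleG minimum had 20.3% higher and 19.6% lower, with a median of -0.02, and 12.8% and 36.8% with library totals alone. The 71 genes, at 60.6% higher, or 46.5% with library totals alone, had a larger share that rose than either set under both scalings. Their share that fell, 12.7% with TMM, was also above that of the genes lowered less deeply. More of the 71 were called at all, 73.2% against 39.7%. Among calls with TMM, 82.7% were higher for the 71 and 78.5% for the genes lowered less deeply, a similar balance. With library totals alone these were 70.2% and 44.5%. The difference itself was not tested, and the sets were not matched for level.

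Coding lengths of the 71 genes ran from 231 to 6192 bases, with a median of 1200 and quartiles of 974 and 1605. The median was 1398 for the genes lowered less deeply, 1320 for the 4309 genes at the SoleG minimum and 1215 for all genes. The 6192-base gene had 48.1 and 42.5 CPM in SoleS, 386 and 397 CPM in GS, and 536 and 576 CPM in SoleG. The 231-base gene had 42.4 and 39.7 CPM in SoleS, 985 and 1041 CPM in GS, and 932 and 889 CPM in SoleG. Very short and very long genes were both present. The quartiles were 822 and 2004 bases for the 4309 genes.

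Among the ID numbers, 9 of the 71 genes fell within a span of 82 numbers, a span noticed in the data, and the 71 held 2 pairs of consecutive numbers, both within it. The files do not say whether numbers follow the order of genes on the chromosomes. One pair joined the 3429-base gene, described above, with a 273-base gene at 0.575 and 1.49 CPM in SoleS, 33.2 and 47.9 CPM in GS, and 34.1 and 30.5 CPM in SoleG. The other joined the 534-base gene with a 1911-base gene at 54.7 and 57.6 CPM in SoleS, 655 and 690 CPM in GS, and 571 and 696 CPM in SoleG. For the 273-base and 1911-base genes GS and SoleG libraries overlapped in CPM, although both were called higher in GS after TMM scaling (edgeR adjusted p = 0.0288 and 0.0367). Neither was called without GS replicate 2, nor the 273-base gene without SoleG replicate 2, nor the 1911-base gene without GS replicate 1 or SoleG replicate 1. Of 138 other genes numbered next to one of the 71, 23 (16.7%) belonged to the genes lowered less deeply, against 11.6% of all genes; at the SoleG minimum the shares were 20.9% and 14.7%. How reads shared by similar or overlapping genes were counted is not given, so the values of such genes are uncertain.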

How the data were processed

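RNA-seq libraries of total RNA were made by Illumina protocols from cells shaken at 30 °C, 2 per medium, per the labels' protocols. The submitters' processing notes list Bowtie2 2.2.5. How reads were counted, with which strand setting, build and annotation, is not given in the sources used here. Per the file headers, each file deposited for a library gives every gene's coding length, count and FPKM value. The deposited counts are whole numbers and were used for the main results. The deposited FPKM values of GS replicate 2 are 0.929 times those its own total gives, so FPKM was recomputed from each library's own total.

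The members, comparison sets and bands were chosen with earlier results of these data known. A test was made only for GS against SoleG. Genes were filtered with filterByExpr (184 removed, 5280 tested), scaled with TMM factors (0.957 to 1.08) and fitted in 1 model of 3 groups to all 6 libraries, with 3 residual degrees of freedom (edgeR 4.0.16, R 4.3.3; glmQLFit, glmQLFTest). Genes were called at a Benjamini-Hochberg adjusted p below 0.05. The standard error is the log2 fold change divided by the root of the F statistic. An exact test of 2 against 2 libraries cannot go below p = 0.333. CPM in the text is by library total, without TMM. IDs were printed for the 2 genes with the highest and the 2 with the lowest fold change among those called in GS against SoleG with groups apart, and for the 2 with the lowest SoleS ratio to SoleG and to GS. Alternatives were RLE, upper-quartile and total-count scaling, DESeq2 1.42.0, limma-voom (limma 3.58.1), other filters, fits to the 4 libraries compared, a replicate block, and leaving out each library. The deposited FPKM values were also tested by limma after adding 1 or 0.1 and taking log2. limma on recomputed FPKM was added after the data were seen. The test was also run on simulated counts in which 200 genes changed in GS and all others were alike in all media. In these data far more genes were called, so the simulation does not check the calls at such a share.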

Additional observations from a re-analysis of the deposited data

How the results depend on the processing

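The choice of genes was stable in number. It gave 65 genes with CPM after TMM scaling, 76 with a pseudocount of 0, 62 with a pseudocount of 5, 69 with deposited FPKM, and 70 to 75 with a library left out. As a share of the summed deposited FPKM values the 71 genes held 0.752% in SoleS, 14.2% in GS and 13.2% in SoleG, and without the gene with the most counts 0.846%, 15.0% and 13.6% of counts.

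In GS against SoleG, the 43 genes that rose were 33 to 44 in the other fits on counts and 34 to 43 when 1 library was omitted, with the minimum without GS replicate 2. They were 25 and 23 with limma on the deposited FPKM with pseudocounts of 1 and 0.1, 18 unfiltered and 28 with recomputed FPKM. The 9 that fell were 14 with total counts and 6 to 10 when 1 library was omitted, with the minimum without GS replicate 1. None of the 43 or the 9 was called in the opposite direction in any of the 19 alternatives, and 17 of the 43 and 6 of the 9 kept their call in all 19, or 32 and 6 in the 15 run on counts. Over all genes, 1056 higher and 927 lower became 697 and 1711 with total counts, 519 and 1719, 510 and 1694, and 429 and 1395 with limma on deposited FPKM (pseudocount 1, 0.1, and 1 unfiltered), 617 and 1472 on recomputed FPKM, and 760 to 1054 and 603 to 921 with a library left out, both lowest without GS replicate 2. The cause of these differences was not tested. PK4657 lost its call with limma on FPKM (largest adjusted p = 0.225), while PK3754, PK1124, PK3139, PK4304 and PK2426 kept theirs in every alternative. The replicate block gave 43 higher and 9 lower among the 71 and left the calls of the named genes as they were. Deviations of replicates correlated at -0.10, -0.04 and 0.05 between media, so no shared effect of replicate number was seen. These values cannot settle whether replicate numbers pair the libraries. Depth limits the level in SoleS of the 5 genes with fewer than 50 counts there.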
